A study of Homo sapiens with 6 samples.

Results

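The genes of DNA replication and S phase were examined in A549 cells, a human lung adenocarcinoma cell line, that over-expressed the RNA-binding protein CELF6. The 41 genes were chosen by symbol for their known function, with no measured value in the rule, and each symbol had 1 row among the 29889 genes with at least 1 count. CELF6-OE cells were transfected with a pIRES-hrGFP-1a plasmid that carries CELF6, and Control cells with the empty plasmid. Lipofectamine 2000 was the transfection reagent in each case, and 48 h later RNA was taken from 3 biological replicates of either population. The cells are a transiently transfected population of a single line, and the share of cells that carried a plasmid is not given in the sources used here.

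To copy its genome once per cell cycle, a cell first loads a ring-shaped helicase, MCM2-7, onto replication origins in G1 phase, with the help of the origin recognition complex, CDC6 and CDT1. At the start of S phase, CDC7 kinase and cyclin E with its kinase switch the helicase on by recruiting CDC45 and the GINS complex. Polymerases, the sliding clamp PCNA and its loader RFC, the single-strand binding protein RPA and the enzymes that make deoxynucleotides then carry out synthesis. Most of these genes are transcribed late in G1 phase under the control of E2F factors, and their mRNA is widely used as a readout of proliferation in tumour cells.

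Of the 41 genes, 12 rose, 1 (PCNA) fell and 28 did not pass at an adjusted p under 0.05 by the quasi-likelihood test of edgeR, after Benjamini-Hochberg adjustment over the 15847 genes tested. Over all genes tested, 6.47% rose and 11.5% fell by the same rule, against 29.3% of the 41 genes that rose. The genes that rose were CDC6, MCM4, MCM6, MCM10, GINS2, GINS4, RFC5, RRM1, RRM2, CCNE1, CCNE2 and CDC7, by between 14% for MCM4 and 42.9% for CCNE2. All 41 genes passed the filter on low counts, with between 91 counts (CCNE2) and 18301 counts (PCNA) in a library.

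The changes were small. The fitted change was above 0 for 34 and below 0 for 7 of the genes, and the median log2 fold change was 0.14, an increase of 9.81%, beside a median of 0.011 over all genes tested. The 7 genes with a fitted change below 0 were PCNA, RPA3, RFC2, TK1, POLA2, RPA2 and LIG1. None of the 41 genes changed by 1.5-fold or more, so none met the DEG criteria in the methods of the study, which ask for such a change with p under 0.01 and which 7.27% of all genes met in edgeR's quasi-likelihood test. The results text of the study names an FDR under 0.05 in place of that p, and with it too the count was 0 of the 41 genes. DESeq2 and limma-voom also called 0 of them by the criteria in the methods, and 19 of the genes had an unadjusted p under 0.05, beside 32.7% of all genes. The 95% interval of the fold change lay inside a 1.5-fold change in either direction for 38 genes and reached beyond it for GINS4, CCNE2 and CDC7. When a 1.2-fold change was asked for with the same p, 8 genes were called (MCM6, MCM10, GINS4, PCNA, RFC5, RRM1, CCNE2 and CDC7), beside 16.3% of all genes.

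**Figure D1:**
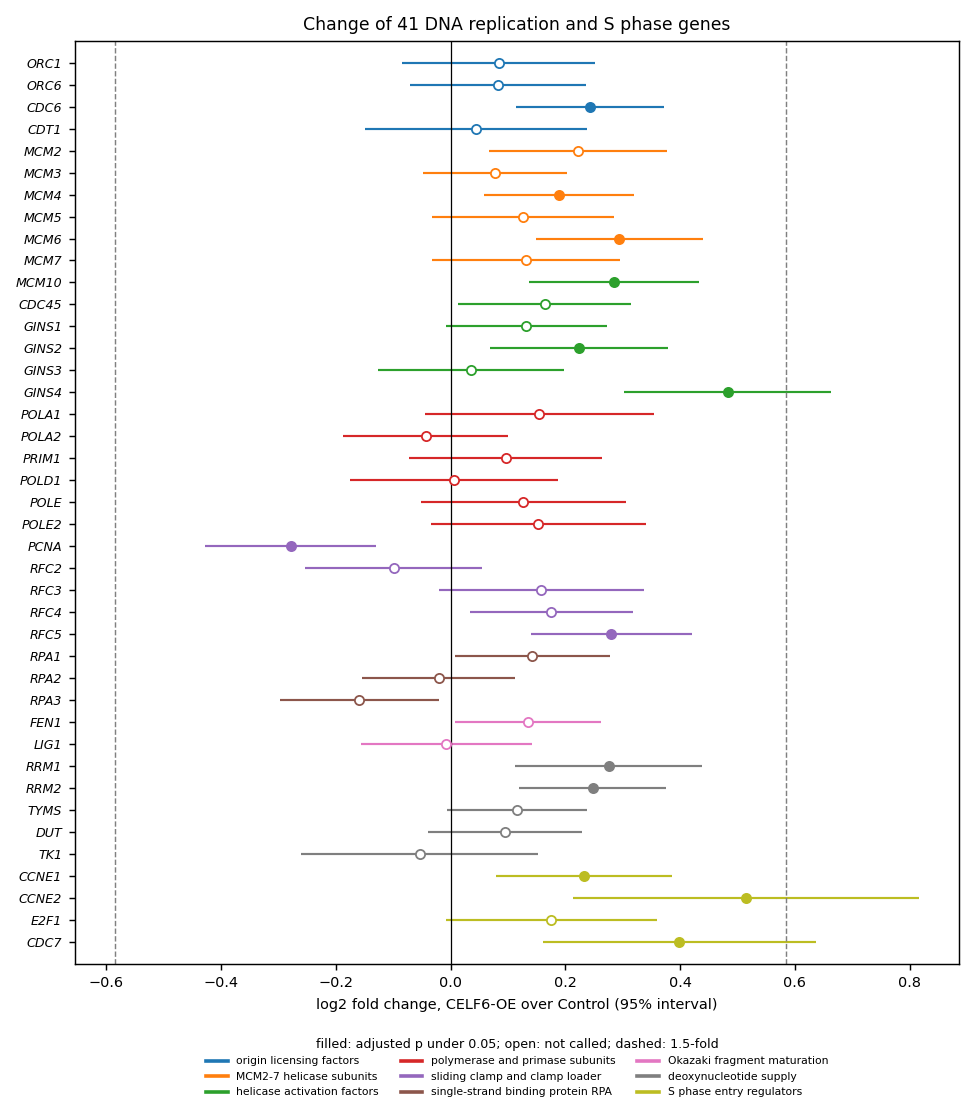
Log2 fold change of CELF6-OE over Control for the 41 genes on the horizontal axis, with its 95% interval from edgeR's quasi-likelihood fit and colours for the role of the gene. Filled circles are the 12 genes that rose and PCNA, which fell; open circles did not pass, and only GINS4, CCNE2 and CDC7 have intervals that cross the dashed lines at a 1.5-fold change.

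The number of calls depended on single libraries. Without CELF6-OE replicate 1, CELF6-OE replicate 2 or Control replicate 2, only GINS4 still passed, and the share of all genes that passed fell from 18% to 9.29%, 8.32% and 8.2%. Without CELF6-OE replicate 3, Control replicate 1 or Control replicate 3, the number of genes that rose was 8, 10 and 14, and 1 fell each time. The share of all genes that passed in either direction was then 13.2%, 26.6% and 20.7%. The median log2 fold change of the 41 genes was between 0.12 and 0.17 under every alternative, and the 13 called genes kept their direction in all 18 alternatives.

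In TMM-scaled CPM, 25 of the genes had no overlap between the groups. Of these, 23 were higher in every CELF6-OE library than in every Control library, a rule met by 17.9% of all genes, and 2 (PCNA and RPA3) were lower, a rule met by 20% of all genes. After the log2 level of each gene was centred on its mean over the libraries, the median of the 41 genes was 0.078, 0.099 and 0.034 in the CELF6-OE libraries, given here and throughout in the order of replicates 1 to 3. It was -0.085, -0.069 and -0.073 in Control replicates 1 to 3, so the groups were separate. CELF6 had an FPKM (a fragment count scaled to transcript length and library size) of 270.1, 294.9 and 172 in CELF6-OE, and 0 counts in each Control library. CELF6-OE replicate 3 thus had both the lowest CELF6 level and the CELF6-OE median nearest to Control, and the part of the CELF6 level in this was not tested.

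The total count was between 33748328 and 37920700 per library, mitochondrial genes took between 8.69% and 10.1% of it, and no library was a duplicate of another. Within a group, the counts of the genes tested differed most between Control replicates 1 and 3. The chi-square per degree of freedom, a measure of how far counts differ, was 29.3 for them and 7.67 to 11.7 for the other pairs. All 5 listed genes that NRF2 drives in A549 had at least 1 FPKM in every library, as had 5 of 6 epithelial markers, the exception being EPCAM. The summed FPKM of the 6 epithelial markers ranged from 5041 to 5793 across CELF6-OE libraries and from 6177 to 7029 across Control libraries, and 4 of the 6 (KRT8, KRT18, KRT19 and CDH1) fell. None of 5 fibroblast or 4 endothelial markers, and 1 of 8 leukocyte markers (CD14), had at least 1 FPKM in every library. Of the 8 leukocyte markers, 6 had a row among the genes with at least 1 count. The summed FPKM was 0.25 to 0.47 for the fibroblast, 0.01 to 0.07 for the endothelial and 3.08 to 4.7 for the leukocyte markers. The part of the epithelial markers in the results on replication genes was not tested.

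In Control, the levels of the 41 genes spanned from a mean FPKM of 0.71 for CCNE2 to 299.6 for PCNA, with a median of 19.6. The genes above 50 FPKM were PCNA, TK1, TYMS, MCM7, RRM2, RFC2 and FEN1, which are the clamp, a subunit of its loader, the flap endonuclease, enzymes of nucleotide supply and a helicase subunit. The genes under 5 FPKM were POLE, GINS4, POLA1, CDC7 and CCNE2. The rank order of the genes was almost the same in CELF6-OE (Spearman's rho of 0.986 across the 41 gene means, a description of genes measured in the same libraries). Subunits of a fixed complex thus did not have equal levels per length in either group, since MCM7 was at 95 ± 6.74 FPKM in Control and MCM6 at 22.8 ± 2.18 (SD, n = 3).

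**Figure D2:**
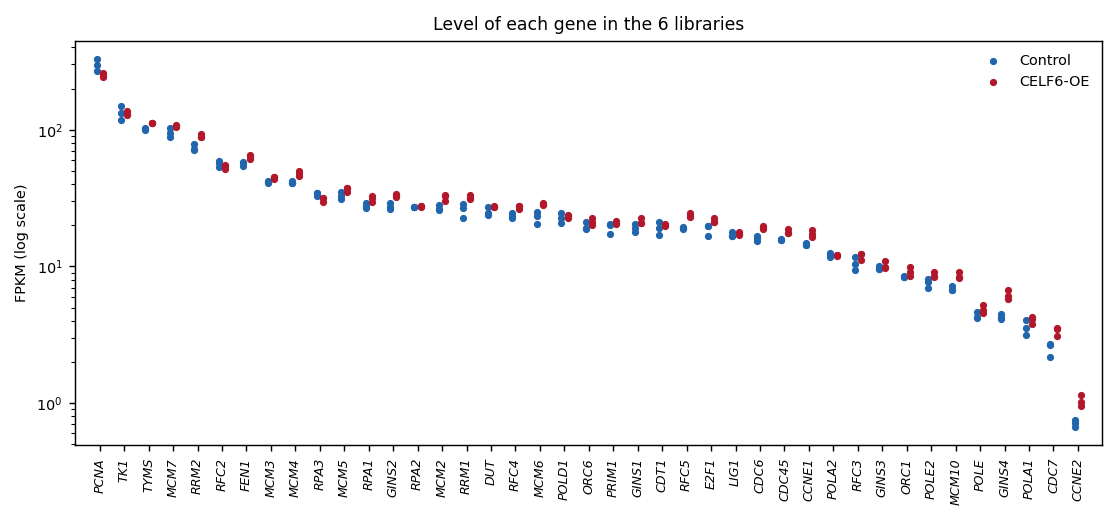
FPKM (log scale, vertical axis) of the 41 genes in the 3 Control and 3 CELF6-OE libraries, 1 point per library, with genes ordered by their Control mean from PCNA to CCNE2. The order of the genes is nearly kept between groups, and shifts between groups are small beside the range of levels.

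Among the factors that license origins, CDC6 rose and the other 3 did not pass. CDC6 (ENSG00000094804), the ATPase that helps to load MCM2-7, lies on chromosome 17 from 40287879 to 40304657 of GRCh38. It was measured at 19.7, 19.3 and 18.9 FPKM in CELF6-OE and at 16.6, 16.1 and 15.3 FPKM in Control. The groups did not overlap, and the log2 fold change was 0.24 (standard error 0.059, edgeR adjusted p = 0.0164). ORC1, the ATPase subunit of the origin recognition complex, and ORC6, its smallest subunit, each had a log2 fold change of 0.08, with 95% intervals of -0.08 to 0.25 and -0.07 to 0.24. CDT1, the partner of CDC6 in MCM2-7 loading, was at 0.04 (-0.15 to 0.24). GMNN, which encodes the CDT1 inhibitor geminin and is not among the 41 genes, was at 0.04 (edgeR adjusted p = 0.73).

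All 6 subunits of the MCM2-7 helicase had a fitted change above 0, and 2 of them, MCM4 and MCM6, rose. MCM6 (ENSG00000076003, chromosome 2 from 135839626 to 135876443) had an FPKM of 28.5, 29.1 and 28.1 in CELF6-OE and 24.8, 23.25 and 20.5 in Control. Its log2 fold change was 0.29 (standard error 0.066, edgeR adjusted p = 0.0116), and all CELF6-OE libraries lay above Control. For MCM4 (ENSG00000104738) the FPKM was 49.6, 48 and 45.9 in CELF6-OE and 42.2, 40.6 and 40.5 in Control. Here too the groups were apart, with a log2 fold change of 0.19 (standard error 0.059), but the edgeR adjusted p of 0.0483 was just under the threshold, and it was over it in 9 of the 18 alternatives. MCM2 (ENSG00000073111) lay just on the other side. It had 32.6, 33.4 and 29.98 FPKM in CELF6-OE and 26, 26.4 and 28.1 in Control, for a fitted log2 change of 0.22 (standard error 0.071, edgeR adjusted p = 0.0504). MCM3, MCM5 and MCM7 had log2 fold changes of 0.08, 0.13 and 0.13, each with a 95% interval that held 0. For MCM5 and MCM7, Control replicate 3 (34.8 and 102 FPKM) came close to the CELF6-OE libraries (35.2 to 37.7 and 104 to 108 FPKM). In TMM-scaled CPM the groups overlapped for both genes. Control replicate 3 was at 133 for MCM5 and 403 for MCM7, above CELF6-OE replicate 3 at 129 and 393.

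The factors that turn the loaded helicase into a running fork held the strongest call of the whole group. GINS4 (ENSG00000147536), which encodes the SLD5 subunit of the GINS ring, had an FPKM of 6.05, 6.67 and 5.76 in CELF6-OE and 4.14, 4.3 and 4.5 in Control. Its log2 fold change of 0.48 (standard error 0.082, edgeR adjusted p = 0.00234) is an increase of 39.8%, with a 95% interval of 23.3% to 58.4%, and it passed in all 18 alternatives. In GENCODE v44, 23.4% of the exonic bases of GINS4 overlap exons of genes on the other strand. The libraries were directional, but the strand setting of the counting is not given in the sources used here, so reads on these bases could not be assigned with certainty. GINS2 (ENSG00000131153), which encodes PSF2, had 33.3, 33.6 and 32.1 FPKM in CELF6-OE and 26.4, 27.3 and 29.3 in Control, with a log2 fold change of 0.22 (standard error 0.070, edgeR adjusted p = 0.0487). GINS2 passed in 10 of the 18 alternatives, and in DESeq2 its adjusted p was 0.0517. The remaining GINS subunits did not pass, at log2 fold changes of 0.13 (-0.01 to 0.27) for GINS1 and 0.04 (-0.13 to 0.20) for GINS3. The 4 genes of the same ring thus had fitted increases from 0.04 to 0.48, although no test of the difference between subunits was made. MCM10 (ENSG00000065328), which binds the helicase as it is activated, had 8.28, 9.08 and 8.33 FPKM in CELF6-OE and 7.24, 6.76 and 6.67 in Control. This gave a log2 fold change of 0.28 (standard error 0.067, edgeR adjusted p = 0.0148) with no overlap between the groups. CDC45 (ENSG00000093009), the helicase cofactor, had 18.7, 17.7 and 17.45 FPKM in CELF6-OE against 15.6, 15.7 and 15.8 in Control, without overlap, but its log2 fold change of 0.16 (standard error 0.069) had an edgeR adjusted p of 0.122.

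None of the 6 polymerase and primase genes passed. The fitted changes of POLA1 and POLA2 (polymerase alpha), PRIM1 (primase), POLD1 (polymerase delta), and POLE and POLE2 (polymerase epsilon) were between -0.04 for POLA2 and 0.15 for POLA1 on the log2 scale. In TMM-scaled CPM the groups did not overlap for POLE2 alone among the 6, and its levels were 9.08, 8.47 and 8.36 FPKM in CELF6-OE and 7.73, 8.1 and 7.01 in Control. POLD1, the lagging-strand polymerase subunit, was nearest to 0, with a log2 fold change of 0.01 (-0.18 to 0.19), and its sign was negative in some alternatives.

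PCNA, the sliding clamp, fell, and RFC5, a subunit of its loader, rose. PCNA (ENSG00000132646, chromosome 20 from 5114953 to 5126626), which tethers polymerases to DNA, had an FPKM of 250.2, 245 and 260.2 in CELF6-OE and 328, 299 and 271 in Control. Every CELF6-OE library was below every Control library, although Control replicate 3 was near the CELF6-OE range. The log2 fold change was -0.28 (standard error 0.068, edgeR adjusted p = 0.0166), and PCNA passed in 15 of the 18 alternatives. In the other 3, each of which left out 1 library (CELF6-OE replicate 1, CELF6-OE replicate 2 or Control replicate 2), the log2 fold change was -0.28, -0.26 and -0.27 and the edgeR adjusted p was 0.0678, 0.0796 and 0.0901. GENCODE v44 lists 3 pseudogenes named after PCNA, and reads without a unique position were not counted. RFC5 (ENSG00000111445) rose from 19, 18.8 and 19.4 FPKM in Control to 23.2, 24.5 and 23.1 in CELF6-OE. Its log2 fold change was 0.28 (standard error 0.064, edgeR adjusted p = 0.0123). In GENCODE v44, 10.6% of the exonic bases of RFC5 overlap exons of genes on the other strand. Among these genes, WSB2 had a log2 fold change of 0.22 (edgeR adjusted p = 0.032). RFC4 had 27.7, 27.6 and 26.1 FPKM in CELF6-OE and 24.7, 23.3 and 22.7 in Control, for a fitted log2 change of 0.18 that did not pass (edgeR adjusted p = 0.0845). RFC3 was at 0.16 (-0.02 to 0.34) and RFC2 at -0.10 (-0.25 to 0.06).

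The 3 subunits of RPA, which coats single-stranded DNA at the fork, had fitted changes in different directions, and none passed. RPA1, the large DNA-binding subunit, had 32.7, 31.5 and 29.8 FPKM in CELF6-OE and 29.3, 27.6 and 26.6 in Control, for a fitted log2 change of 0.14 (edgeR adjusted p = 0.133). RPA3, the smallest subunit, had 31.6, 29.7 and 31.7 FPKM in CELF6-OE and 34.6, 33 and 34.2 in Control, for a fitted log2 change of -0.16 (edgeR adjusted p = 0.106). The libraries of the groups did not overlap for either gene. RPA2 was at -0.02 (-0.15 to 0.11). Of the enzymes that finish Okazaki fragments, the flap endonuclease FEN1 had 65.1, 63.7 and 61.1 FPKM in CELF6-OE and 58, 56.9 and 54.6 in Control, for a fitted log2 change of 0.14 (edgeR adjusted p = 0.132), and the ligase LIG1 was at -0.01 (-0.16 to 0.14).

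Of the genes that supply deoxynucleotides, both subunits of ribonucleotide reductase rose. RRM1 (ENSG00000167325), the large subunit, had 31.7, 33.2 and 31.2 FPKM in CELF6-OE and 28.45, 26.8 and 22.6 in Control, for a fitted log2 change of 0.28 (standard error 0.074, edgeR adjusted p = 0.0265). The S phase subunit RRM2 (ENSG00000171848) had 88.85, 92.5 and 88 FPKM in CELF6-OE and 79.2, 72.3 and 71 in Control, for a fitted log2 change of 0.25 (standard error 0.058, edgeR adjusted p = 0.0143). For each of the subunits the CELF6-OE libraries lay close together and above all Control libraries. TYMS (thymidylate synthase) was at 0.12 (-0.01 to 0.24), DUT (dUTPase) at 0.09 (-0.04 to 0.23) and TK1 (thymidine kinase) at -0.05 (-0.26 to 0.15). TYMS shares 47.9% and DUT 14.5% of their exonic bases in GENCODE v44 with genes on the other strand. GENCODE also lists 3 pseudogenes named after RRM2 and 8 named after DUT. TK1 had the widest spread of the 3 in Control, at 117, 133 and 149 FPKM.

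**Figure D3:**
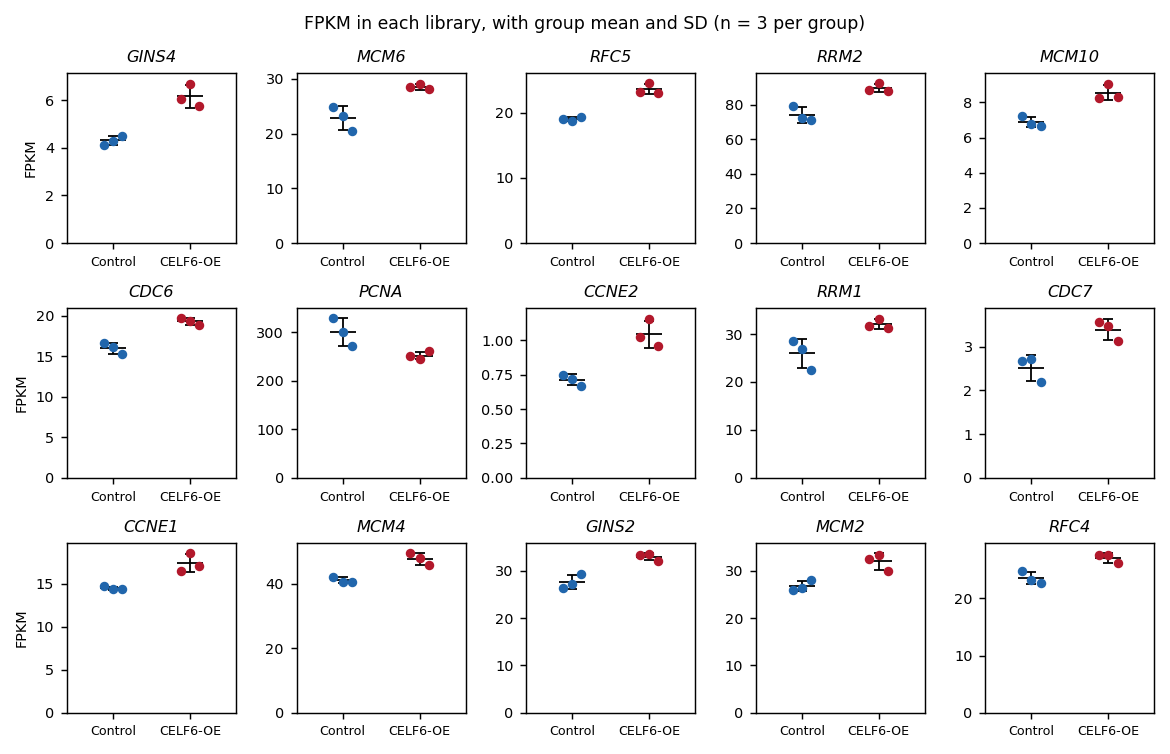
FPKM (vertical axes, from 0) in the 3 Control and 3 CELF6-OE libraries for the 13 genes with an adjusted p under 0.05 and the next 2 by p, MCM2 and RFC4, with 1 point per library and the mean and SD of each group. The CELF6-OE points lie above all Control points in every panel except PCNA, where they lie below.

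The regulators of S phase entry had the largest fitted median of the roles, 0.32 on the log2 scale, and 3 of the 4 rose. CCNE2 (ENSG00000175305), a cyclin E gene, had an FPKM of 1.02, 1.15 and 0.96 in CELF6-OE and 0.75, 0.72 and 0.67 in Control. The log2 fold change of 0.52 was the highest of the 41 genes, but it rested on 116 to 146 counts per CELF6-OE library and 91 to 98 per Control library, with a standard error of 0.14 (edgeR adjusted p = 0.0255). On the log2(FPKM + 1) scale, which understates the change of low genes, it was 0.25, and 37.1% of its exonic bases overlap genes on the other strand. CCNE1 (ENSG00000105173) had 16.5, 18.6 and 17.1 FPKM in CELF6-OE and 14.7, 14.45 and 14.4 in Control, for a fitted log2 change of 0.23 (standard error 0.070, edgeR adjusted p = 0.0404). CDC7 (ENSG00000097046), the kinase that fires origins, had 3.57, 3.47 and 3.12 FPKM in CELF6-OE and 2.66, 2.71 and 2.18 in Control. Its log2 fold change was 0.40 (standard error 0.11, edgeR adjusted p = 0.0276), with no overlap between the groups. Of the 18 alternatives, CCNE1 passed in 11, CCNE2 in 13 and CDC7 in 15, and in DESeq2 the adjusted p was 0.0532 for CCNE1 and 0.0504 for CCNE2. E2F1, an activator of S phase transcription, had 21.2, 22.5 and 21.1 FPKM in CELF6-OE and 16.8, 19.7 and 19.6 in Control, for a fitted log2 change of 0.18 that did not pass (edgeR adjusted p = 0.172). Without Control replicate 1, the lowest library, the change of E2F1 was 0.077 (edgeR adjusted p = 0.406).

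Promoters of replication genes are known for E2F sites, so the 250 bases before the start of each gene in the RefSeq table (GRCh38.p14) were searched on both strands for the words TTTCCCGC, TTTGGCGC, TTTCGCGC and TTTGCCGC. Entries were found for 35 of the 41 genes, with 47 promoters, and those without one were MCM4, MCM5, GINS4, CCNE2, RPA2 and RPA3. At least 1 word was present in 31.9% of these promoters and in 2.79% of the 35116 promoters of the table, with 3.98% among promoters of genes tested here. Words on opposite strands can overlap, and the median GC content was 68% for the 47 promoters and 58% for the table. By gene, a word was found for 3 of 9 genes that rose (MCM6, GINS2 and CDC7), for PCNA, which fell, and for 11 of 25 that did not pass. The words thus occurred in promoters of all 3 kinds. The word CCAAT, also searched on both strands, was found in 53.2% of the 47 promoters and in 32% of the table. In 35 promoters of the mitosis genes listed below, CCAAT was found in 77.1% and an E2F word in 5.71%.

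The 150 bases before the start are shown for MCM6 and CDC6, which rose, for PCNA, which fell, and for E2F1 and CDT1, which did not pass. They are written 5′ to 3′ on the strand of the gene, and capitals mark the E2F words. A match of letters is a description and does not show that a factor binds.
MCM6, chr2:135876444-135876593, minus strand: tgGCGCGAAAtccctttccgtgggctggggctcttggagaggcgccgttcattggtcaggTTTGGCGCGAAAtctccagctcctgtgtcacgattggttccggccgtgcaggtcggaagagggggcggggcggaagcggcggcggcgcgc
CDC6, chr17:40287729-40287878, plus strand: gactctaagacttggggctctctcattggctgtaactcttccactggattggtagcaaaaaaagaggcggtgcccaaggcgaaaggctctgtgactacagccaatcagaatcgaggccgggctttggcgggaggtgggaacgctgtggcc
PCNA, chr20:5126623-5126772, minus strand: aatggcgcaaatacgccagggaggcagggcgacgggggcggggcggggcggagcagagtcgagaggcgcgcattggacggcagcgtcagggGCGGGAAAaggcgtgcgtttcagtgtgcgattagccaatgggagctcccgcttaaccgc
E2F1, chr20:33686386-33686535, minus strand: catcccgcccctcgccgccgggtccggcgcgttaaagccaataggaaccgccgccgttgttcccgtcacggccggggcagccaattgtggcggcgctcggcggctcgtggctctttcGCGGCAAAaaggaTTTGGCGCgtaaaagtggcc
CDT1, chr16:88803639-88803788, plus strand: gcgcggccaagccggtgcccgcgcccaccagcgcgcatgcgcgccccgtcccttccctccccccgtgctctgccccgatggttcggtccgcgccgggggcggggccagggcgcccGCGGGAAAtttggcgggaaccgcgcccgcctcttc

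MCM6 has 4 words in the 250 bases searched, in pairs that overlap on opposite strands. The words of the nearer pair begin 90 and 86 bases before the start, and of the other pair the word at 148 is shown in full, while its partner begins outside the window. In the window of PCNA, which is 1 of its 2 listed promoters, a word begins 59 bases before the start, CDT1 has a word at 35, and E2F1 has words at 33 and 20. The window of CDC6 held none of the 4 words searched, which says only that these letters are not in it.

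Genes that act beside the 41 were read from 6 further lists, with the same test, in which 6.47% of all genes rose and 11.5% fell. Several of the counts were near these shares. The 2 of 18 other nucleotide pool genes that fell were near the share of falls over all genes. The 2 of 33 other G1/S regulators that fell were below that share. Of 35 other replication factors, 4 rose (ORC2, DNA2, POLE3 and TIPIN) and 0 fell, with a median log2 fold change of 0.11. DNA2, a nuclease and helicase of Okazaki fragments and stalled forks, had a log2 fold change of 0.53 (edgeR adjusted p = 0.0148), and ORC2, an origin recognition subunit, 0.31 (edgeR adjusted p = 0.0102). Of 15 genes of chromatin assembly on new DNA, 4 rose and 0 fell, with a median of 0.13. UHRF1, which brings the methyltransferase DNMT1 to replicated DNA, had 12.3, 13.9 and 11.5 FPKM in CELF6-OE and 9.41, 8.12 and 8.37 in Control, for a fitted log2 change of 0.51 (edgeR adjusted p = 0.00144). Of 19 checkpoint and fork repair genes, 2 rose (WEE1 and CHEK1, kinases that restrain the cycle when forks stall) and 0 fell, with a median of 0.17.

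Among these lists, CDKN1A, CMPK2 and SAMHD1 had changes of over 1.5-fold downwards. Of 33 other G1/S regulators tested, 4 rose (CDK6, E2F7, RBL1 and TFDP1) and 2 fell (CDKN1A and E2F5), with a median of 0.14. CDKN1A, which encodes the CDK inhibitor p21, also a binding partner of PCNA, had 51.2, 51.6 and 53.1 FPKM in CELF6-OE and 81.65, 88.1 and 90.55 in Control. The log2 fold change of CDKN1A was -0.77 (standard error 0.070, edgeR adjusted p = 4e-05), and no CELF6-OE library came near Control. CDKN2A and CDKN2B of the same list had no row among the genes with at least 1 count, and CCND2 was too low to test. Of 18 other nucleotide pool genes, 2 rose, among them DTYMK (thymidylate kinase), and 2 fell (CMPK2 and SAMHD1), with a median of 0.01. DTYMK had a log2 fold change of 0.29 (edgeR adjusted p = 0.0207). SAMHD1, a phosphohydrolase that breaks down deoxynucleotides and restricts viruses, had 13.8, 16.1 and 19.9 FPKM in CELF6-OE and 29.1, 27.6 and 25.8 in Control. The log2 fold change of SAMHD1 was -0.75 (standard error 0.11, edgeR adjusted p = 0.000758), and that of CMPK2, a mitochondrial nucleotide kinase known as an interferon-stimulated gene, was -1.62 (standard error 0.18, edgeR adjusted p = 0.000158).

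Genes of mitosis were listed for comparison with those of S phase. Of 35 mitosis genes, 16 rose and 0 fell, with a median log2 fold change of 0.27, and 24 were higher in all CELF6-OE than in all Control libraries. The corresponding values for the 41 replication genes, a longer list, were 12, 1, 0.14 and 23. Over all genes tested, 6.47% rose, 11.5% fell and 17.9% were higher in all CELF6-OE than in all Control libraries. No test of the difference between the lists was made. NEK2, a centrosome kinase, had a log2 fold change of 0.53, and the mitotic cyclins CCNB1 and CCNB2 were at 0.30 and 0.36, with edgeR adjusted p values of 0.00564, 0.00477 and 0.00275. After centring, the median of the mitosis genes was 0.12, 0.16 and 0.10 in CELF6-OE and -0.080, -0.10 and -0.16 in Control. In bulk RNA, a different share of cells in S phase or mitosis and a different amount of mRNA per cell cannot be told apart.

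**Figure D4:**
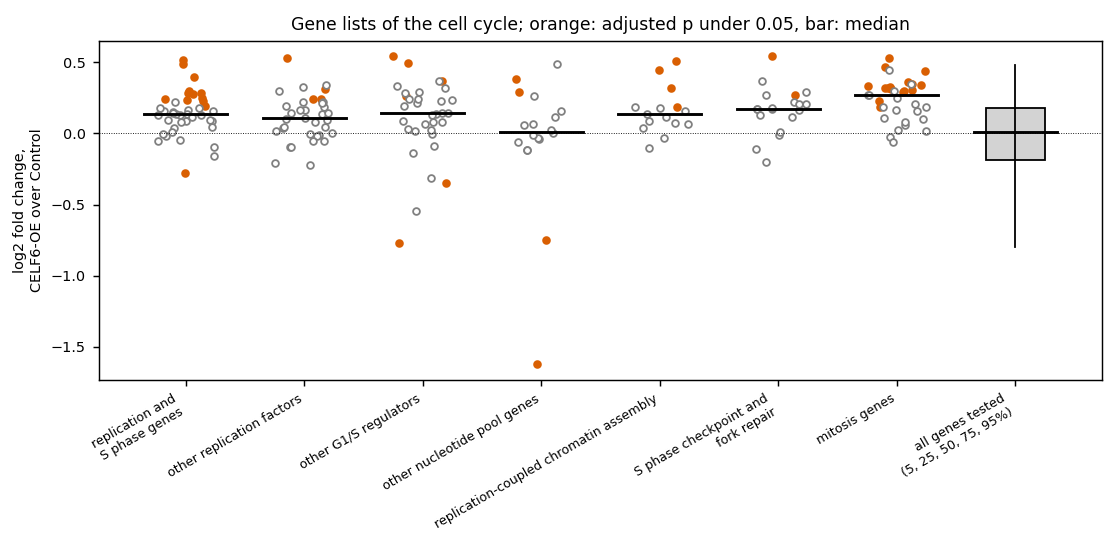
Log2 fold change of CELF6-OE over Control (vertical axis) for each gene of the replication and S phase group and of the 6 further lists, with bars at the medians, orange points at an adjusted p under 0.05, and a box for all 15847 genes tested (median and quartiles, with whiskers at the 5th and 95th percentiles). The medians run from 0.01 for the nucleotide pool genes, where CMPK2 and SAMHD1 lie far below 0, to 0.27 for mitosis.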

How the data were processed

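The authors cleaned the paired-end reads of 6 poly(A) libraries with FASTX-Toolkit, used TopHat2 for alignment to GRCh38 and kept uniquely placed reads. They deposited a table of raw counts per gene and a table of FPKM from the same reads. Neither the counting tool and strand option nor the annotation is given in the sources used here. The labels and the methods differ in RNA input and read length.

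From the deposited counts, CELF6-OE was compared with Control in edgeR 4.0.16 (R 4.3.3), with TMM scaling and the quasi-likelihood test, on the 15847 of 29889 genes kept by filterByExpr. P values were adjusted by Benjamini-Hochberg over all of them. Without that filter the prior degrees of freedom were infinite, against 7.15 with it. Genes were said to rise or fall at an adjusted p under 0.05, fold changes used a prior count of 0.125, and 95% intervals came from this fit. The deposited FPKM served for levels and for limma 3.58.1, with pseudocounts of 1 and 0.1. DESeq2 1.42.0, limma-voom, other scalings and filters, a replicate block and leaving out each library were alternatives. An exact permutation test of 3 against 3 cannot go below p = 0.1 and was not used for calls. Scripts were tested on simulated data with 50 genes changed at each fold change. Of these, 32% were recovered at 1.3-fold, 70% at 1.5-fold, 100% at 2-fold and 98% at 3-fold, with 16 false calls. Small changes can thus be missed, and some calls, above all those just under the threshold, can be false. Far fewer genes were changed in the simulation than the 2845 called in the data. The shares recovered therefore do not give the recovery for the replication genes.

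The genes and lists were chosen with earlier results of these data known. Values in each library were given for genes with an adjusted p under 0.05 and, up to 20, for those with the next smallest p. From the other lists, CDKN1A, CDKN2A, GMNN and at most 3 called genes in each direction were to be named. Names beyond these in counts of few genes, WSB2, and the library values of POLE2, TK1, MCM5 and MCM7 were added after their values were seen. The values of 1 gene of these lists are not reported here. Positions are from GENCODE v44 and promoters from RefSeq. No pairing of the libraries by replicate number was seen, although 3 libraries per group cannot show that there was none. The deviations of same-numbered libraries from their group means had correlations of -0.0061, -0.016 and -0.069 across genes.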

Additional observations from a re-analysis of the deposited data

How the results depend on the processing

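Among the alternatives were other scalings, filters and tests, the replicate number as a block, and each library left out in turn. None of the 20 genes chosen by the naming rule was reversed in any of them. Between 8 (DESeq2) and 17 (library size only, and limma on log2(FPKM + 1)) of the 41 genes rose under the other scalings, filters and tests, against 12, and 1 fell in each. With the replicate block, 6 rose and 1 fell. Over all 15847 genes tested, 1025 rose in the main test. That number was 976 in DESeq2, 1288 with library size only, 1127 in limma on log2(FPKM + 1) and 720 with the replicate block. No CELF6-OE library correlated best with the Control library of its own number (0 of 3), but so few libraries cannot settle whether they were paired. Leaving out 1 library gave 1 to 14 of the 41 genes that rose and 0 to 1 that fell. The DEG criteria in the methods of the study gave 0 of the 41 genes in every alternative, and 8 at a fold change of at least 1.2. For these 20 genes, 14 changes in setting with all libraries lost a call and 15 gained one, and leaving out 1 library lost 42 and gained 1. Without the filter, 7 other replication factors rose and 1 fell (4 and 0 with it), 10 other G1/S regulators rose (4 with it, 2 with the replicate block) and 4 other nucleotide pool genes rose (2 with it). In that setting the prior degrees of freedom were infinite, so the spread of a single gene did not enter its p. The share of all genes that passed was then 11.8% of 29889, against 18% with the filter. Over all genes, leaving out Control replicate 1 called 1906 higher and 2370 lower, and leaving out CELF6-OE replicate 2 called 281 and 1066, against 1025 and 1820. The median of the 41 genes was 0.117 to 0.173. CDT1, GINS3, POLD1, RPA2, LIG1 and TK1, none of which passed, changed sign in at least 1 alternative. The lowest count of any of the 41 genes in a library was 91, and 3 libraries per group limit the precision.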
